A study of Mus musculus with 12 samples.

Results

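The 36 genes described here encode the enzymes that feed and turn the citrate cycle in mitochondria, break down the branched-chain amino acids and use ketone bodies. They were listed by name, and each was read by its brightest probe, meaning the probe with the highest mean over the 12 arrays. All 36 had a probe, of 17646 genes with a named probe in all. The list holds 5 subunits of the pyruvate dehydrogenase complex, 13 citrate cycle genes (with cytosolic Mdh1), 15 genes of branched-chain amino acid breakdown and 3 ketone genes. RNA of whole atria from male mice was hybridised to Illumina Sentrix Mouse-6 beadchips. The 6 Tbx3 mice (source Cre4-CT) carried the Nppa-Cre4 transgene and the CT transgene, from which Cre recombinase activates Tbx3, a repressor of the T-box family. The 6 Control mice (source Cre4) carried Nppa-Cre4 alone, so both groups share the Cre transgene, and no mice with CT alone were compared. The Nppa promoter drives Cre in atrial muscle cells, while the RNA came from all cells of the atria, and the labels give no age.

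Pyruvate dehydrogenase turns pyruvate into acetyl-CoA, which citrate synthase brings into the citrate cycle, where its carbon is released as carbon dioxide and its electrons are passed to the respiratory chain. Leucine, isoleucine and valine are first stripped of their amino group, then oxidised by a branched-chain ketoacid dehydrogenase built like pyruvate dehydrogenase, and end as acetyl-CoA or succinyl-CoA. The 3 dehydrogenase complexes for pyruvate, 2-oxoglutarate and branched-chain ketoacids share a plan of an E1 decarboxylase, an E2 transferase core that carries lipoic acid, and the same E3 subunit. Heart muscle is rich in mitochondria and burns fatty acids, lactate, ketone bodies and some amino acids through this cycle.

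All levels are log2 probe levels after the deposited values were read as natural logs, a base inferred from their range, and quantile-normalized. If the base were 2, every log2 change printed would shrink by a factor of 0.693 and no p would move. A change is Tbx3 minus Control. It counts as a rise or a fall where its Benjamini-Hochberg adjusted p in limma, over all 46114 probes, was under 0.05. Pairs of arrays of 1 group correlated at 0.97 to 0.98, and pairs of a Tbx3 and a Control array at 0.963 to 0.976. All 9 measured cardiomyocyte marker probes lay at or above the 99.3rd percentile of brightness. The brighter of the Tbx3 probes averaged 6.18 ± 0.18 in Tbx3 atria and 6.59 ± 0.21 in Control atria (SD, n = 6 each), a fall of 0.42 (SE 0.11, adjusted p = 0.0263 in limma), and the dimmer had a change of 0.02. The sources used here do not say whether these probes read the transgene, so neither checks the labels.

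Of the 36 genes, 3 fell in the Tbx3 atria, 1 rose and 32 did not pass the test. The genes that fell were Dlat, the E2 core of pyruvate dehydrogenase, Dbt, the E2 core of the branched-chain ketoacid dehydrogenase, and Hibadh, which oxidises a valine intermediate. The gene that rose was Bdh1, the mitochondrial 3-hydroxybutyrate dehydrogenase. Falls made up 8.33% of the 36 genes, against 2.99% of all genes and 8.2% of the brightest 25% of genes, to which 26 of the 36 belong. The single rise was 2.78% of the 36, against 2.97% of all genes and 7.73% of the brightest 25%. The share called among the 36 was thus near that of other bright genes, and the counts alone do not set them apart.

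The direction of the small changes was less even. The change was below 0 for 31 of the 36 genes (86.1%), against 50.9% of all genes and 50.7% of the brightest 25%. That direction is of the brightest probe, and of the 19 genes with several probes 9 had probes of both signs. The median change was -0.17 over the 36 and -0.0032 over all genes. Without adjustment, 15 of the 36 were lower and 2 higher at p under 0.05. The share of all genes at that unadjusted threshold was not counted. Such counts, here and for the gene groups below, thus have no background to be read against. The 36 genes share arrays and cells, so they are not independent of each other, and no test was made on the list. In a comparison list of 17 other measured mitochondrial genes, such as those for porins, import proteins and respiratory subunits, 15 were below 0 with a median change of -0.26, and 1 of them fell (Ndufv1). The lean was weaker among 45 other measured genes of the same pathways and their regulators. There 28 were below 0 and 17 above, with a median change of -0.03.

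**Figure D1:**
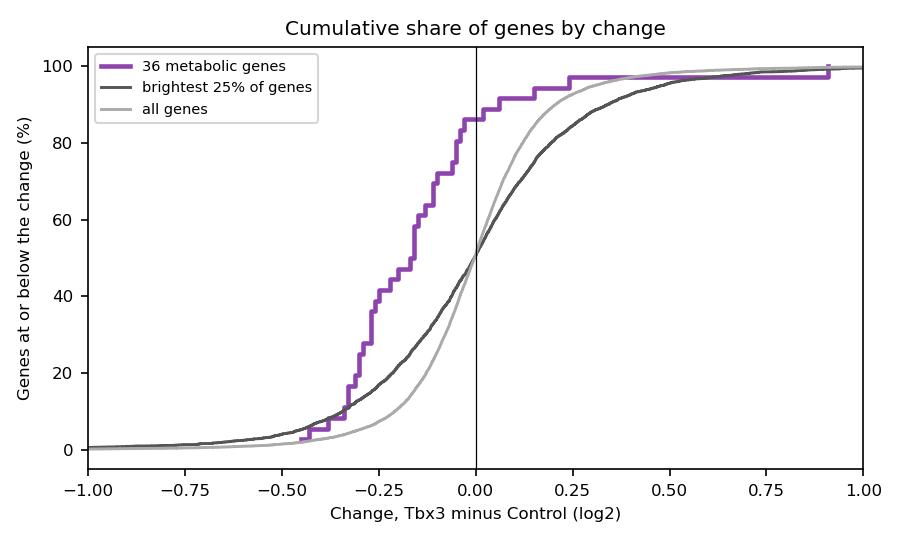
Cumulative share of genes (y axis, %) at or below a given log2 change, Tbx3 minus Control (x axis), for the 36 metabolic genes, the brightest 25% of genes and all 17646 genes. The line of the 36 genes lies to the left of the others between about -0.33 and 0, and reaches 86.1% at 0.

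The fit was also made anew on the brightest 25% of probes alone. Both the variance estimate and the set of tests adjusted for then differ. The SE of Dld went from 0.09 to 0.08 and that of Bdh1 from 0.20 to 0.24. In that fit 9 of the 32 genes still tested fell, namely the 3 above with Dld, Dlst, Ogdh, Ivd, Aldh6a1 and Pccb. That was 28.1% of them, against 9.04% of all probes in that fit. The first share counts genes by their brightest probe and the other counts every probe, so the units are unlike. Bdh1 again rose. The count of falls among these genes thus depends on which probes are tested beside them.

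**Figure D2:**
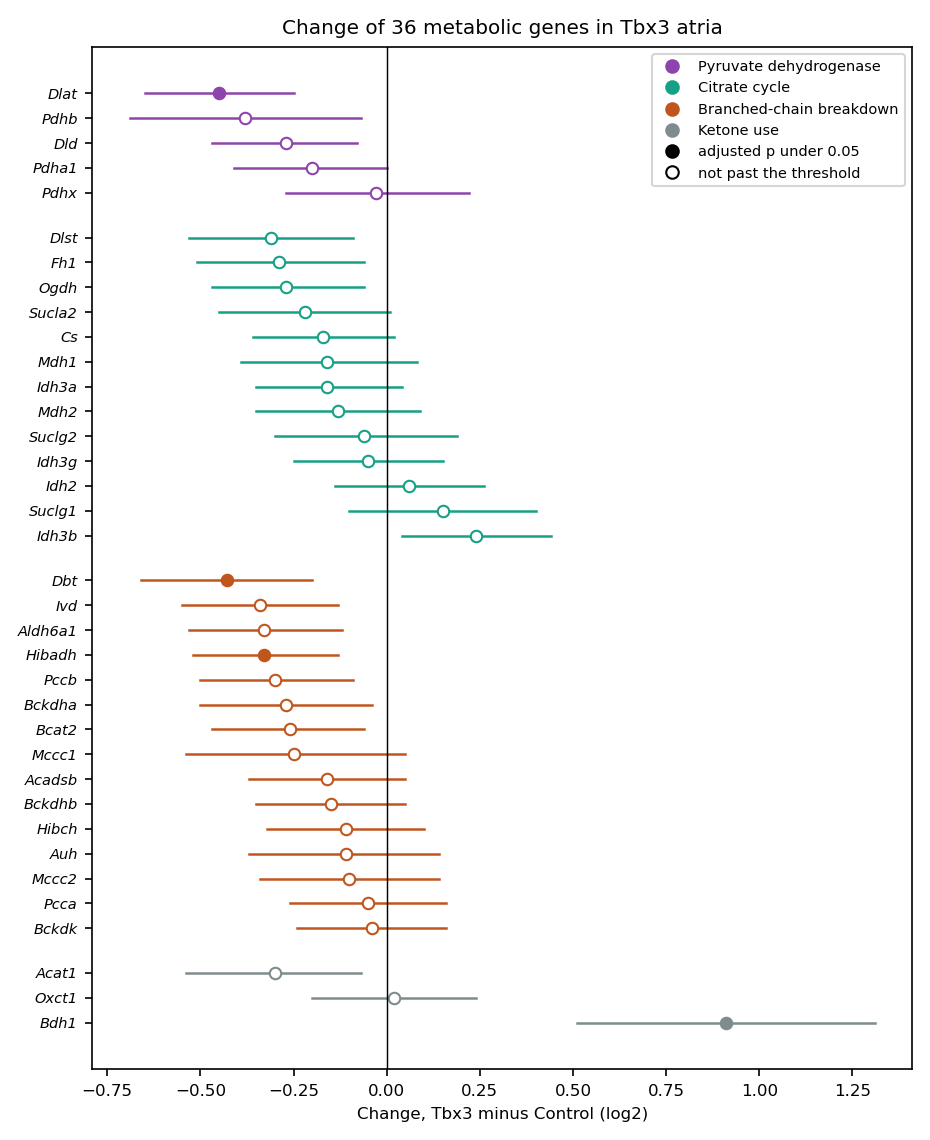
Log2 change, Tbx3 minus Control (x axis), of each of the 36 genes with its 95% confidence interval from limma, by gene group. Filled points passed an adjusted p of 0.05, which were Dlat, Dbt, Hibadh and Bdh1, and all 5 pyruvate dehydrogenase and all 15 branched-chain genes lie below 0.

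In the pyruvate dehydrogenase complex 1 of 5 subunits fell and 0 rose. Dlat ran from 8.34 to 8.80 in Tbx3 atria with a median of 8.47, against 8.83 to 9.11 with a median of 8.93 in Control atria. All 6 Tbx3 arrays were lower than the lowest Control array. The change was -0.45 (SE 0.10, adjusted p = 0.00605 in limma), which leaves 73.3% of the Control level. The call held under all 24 alternatives, of which the change of log base could not alter it. The promoter of Dlat is shown because it is the pyruvate dehydrogenase gene that fell. It lies at chr9:50659731-50660030 on the minus strand of GRCm38.p6 (RefSeq), and capitals mark the only match to a motif searched, the T-box core AGGTGT read on the opposite strand.

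Dlat: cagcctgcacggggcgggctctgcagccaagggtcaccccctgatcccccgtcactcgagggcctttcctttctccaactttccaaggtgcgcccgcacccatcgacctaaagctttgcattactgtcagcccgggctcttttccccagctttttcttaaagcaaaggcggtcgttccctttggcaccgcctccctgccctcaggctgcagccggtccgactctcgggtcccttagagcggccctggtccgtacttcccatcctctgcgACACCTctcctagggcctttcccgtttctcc

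Dld, the E3 subunit that reoxidises lipoic acid in all 3 complexes, also had no overlap between groups. It ran from 9.79 to 10.02 with a median of 9.88 in Tbx3 atria, against 10.05 to 10.34 with a median of 10.14 in Control atria. Its change of -0.27 (SE 0.09) did not pass (adjusted p = 0.126). A second probe of Dld gave -0.39 (adjusted p = 0.0548), and the remaining, dim probe gave -0.07. Pdha1, the E1 alpha subunit whose phosphorylation switches the complex off, ran from 10.84 to 11.32 with a median of 11.01 in Tbx3 atria, against 11.12 to 11.38 with a median of 11.24 in Control atria. In 5 of 6 Tbx3 arrays it lay below every Control array, and its change was -0.20 (SE 0.10, adjusted p = 0.41). Pdhb, the E1 beta subunit, changed by -0.38 (SE 0.15, adjusted p = 0.254), with 1 Control array far above the rest. The probe of Pdhx, which binds E3 to the core, was dim, at the 49.8th percentile, and its change of -0.03 turned positive without any of 4 single arrays.

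Of the 13 citrate cycle genes 0 fell and 0 rose in limma. At an unadjusted p under 0.05, 3 were lower (Dlst, Ogdh and Fh1) and 1 was higher (Idh3b). Cs, the citrate synthase that opens the cycle, ran from 11.54 to 11.85 with a median of 11.69 in Tbx3 atria, against 11.71 to 11.95 with a median of 11.88 in Control atria. The groups overlapped, with a change of -0.17 (95% interval -0.36 to 0.02, adjusted p = 0.513). The changes of the 13 genes ran from -0.31 to 0.24 with a median of -0.16, and 10 of them were below 0.

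Dlst, the E2 core of the 2-oxoglutarate dehydrogenase complex, which makes succinyl-CoA, ran from 9.63 to 10.18 with a median of 10.08 in Tbx3 atria, against 10.18 to 10.52 with a median of 10.26 in Control atria. Before rounding, the highest Tbx3 array lay below the lowest Control array, and the change was -0.31 (SE 0.11, adjusted p = 0.129). The other 4 probes of Dlst gave changes of -0.18 to 0.02, so the size rests on the brightest probe. Ogdh, the E1 subunit of the same complex, ran from 9.59 to 10.10 with a median of 9.88 in Tbx3 atria, against 9.95 to 10.23 with a median of 10.15 in Control atria. It was lower than every Control array in 5 of 6 Tbx3 arrays, with a change of -0.27 (SE 0.10, adjusted p = 0.185). Fh1, the fumarase, showed the same count of 5 arrays and a change of -0.29 (adjusted p = 0.198).

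None of the 4 isocitrate dehydrogenase genes passed. Idh3a, the catalytic subunit of the NAD-dependent enzyme, ran from 9.79 to 10.16 with a median of 10.03 in Tbx3 atria, against 10.11 to 10.29 with a median of 10.12 in Control atria, a change of -0.16 (95% interval -0.35 to 0.04, adjusted p = 0.597). Idh3b, a second subunit of it, had a change of 0.24 (95% interval 0.04 to 0.44, adjusted p = 0.252) and lay above every Control array in 4 of 6 Tbx3 arrays. Its dimmer probe gave -0.22 (adjusted p = 0.411), so the direction differs between its probes. Idh3g and the NADP-dependent Idh2 had changes of -0.05 and 0.06. Among the succinyl-CoA ligase subunits, Suclg1, Suclg2 and the ADP-specific Sucla2 had changes of 0.15, -0.06 and -0.22, with adjusted p of 0.468 or more. The malate dehydrogenases Mdh1 (cytosol) and Mdh2 (mitochondria) had changes of -0.16 and -0.13.

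By their brightest probes, all 15 genes of branched-chain breakdown had changes below 0, from -0.43 to -0.04 with a median of -0.25. Of them 2 fell, 0 rose and 13 did not pass, and 7 were lower at an unadjusted p under 0.05. A separate list of 12 other measured genes of this breakdown and its control was mixed. It had 8 changes below 0 and 4 above, from -0.43 to 0.35 with a median of -0.06. At an unadjusted p under 0.05, 2 of those 12 were lower and 3 higher. Bcat2, the mitochondrial aminotransferase of the opening step, ran from 6.17 to 6.45 with a median of 6.40 in Tbx3 atria, against 6.35 to 6.83 with a median of 6.62 in Control atria. Its change was -0.26 (95% interval -0.47 to -0.06, adjusted p = 0.212), and a second, dimmer probe gave 0.20 (adjusted p = 0.558).

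Dbt, the E2 core of the branched-chain ketoacid dehydrogenase, ran from 6.45 to 6.88 with a median of 6.57 in Tbx3 atria, against 6.72 to 7.27 with a median of 7.14 in Control atria. The groups overlapped through Control arrays 1 and 4, which lay lowest in their group. The fall was 0.43 on the log2 scale (SE 0.11, adjusted p = 0.0239 in limma). A second probe fell by 0.69 (SE 0.13, adjusted p = 0.00115) with no overlap between the groups, while the remaining probe, near the median brightness of all probes, gave -0.09. The brightest probe no longer passed when Tbx3 1, 4 or 5 or Control 2, 3, 5 or 6 was left out (adjusted p up to 0.0729), or with median centring (0.0631). The E1 subunits Bckdha and Bckdhb had changes of -0.27 and -0.15 (adjusted p of 0.269 and 0.642). Bckdha ran from 8.70 to 9.06 with a median of 8.85 in Tbx3 atria, against 8.69 to 9.41 with a median of 9.13 in Control atria. Bckdk, the kinase that switches this complex off, ran from 8.18 to 8.41 with a median of 8.25 in Tbx3 atria, against 8.13 to 8.45 with a median of 8.36 in Control atria, and its change was -0.04 (95% interval -0.24 to 0.16).

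Further along the valine branch, Hibadh ran from 10.73 to 11.01 with a median of 10.76 in Tbx3 atria, against 10.97 to 11.22 with a median of 11.14 in Control atria. Tbx3 array 3 was the only one above the lowest Control array. The fall was 0.33 on the log2 scale (SE 0.09, adjusted p = 0.0478 in limma), or 79.8% of the Control level. Its adjusted p lay just under the threshold and was over it without any of 10 single arrays, all but Tbx3 3 and Control 1 (adjusted p up to 0.11). It was also over the threshold with odd or even numbers as a block (0.0574) and with array weights (0.0503). Its promoter is shown as that of the valine gene that fell, at chr6:52640251-52640550 on the minus strand of GRCm38.p6 (RefSeq), and no motif searched was found in it.

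Hibadh: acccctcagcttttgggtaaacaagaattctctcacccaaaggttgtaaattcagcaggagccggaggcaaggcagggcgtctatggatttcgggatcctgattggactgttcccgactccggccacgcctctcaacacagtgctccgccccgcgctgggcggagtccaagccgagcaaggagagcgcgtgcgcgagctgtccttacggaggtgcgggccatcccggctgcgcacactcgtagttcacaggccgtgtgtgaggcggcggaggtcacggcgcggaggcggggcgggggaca

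Aldh6a1, which takes the product of Hibadh to propionyl-CoA, ran from 9.67 to 10.08 with a median of 9.88 in Tbx3 atria, against 10.06 to 10.32 with a median of 10.19 in Control atria. It was below every Control array in 5 of 6 Tbx3 arrays, with a change of -0.33 (SE 0.10, adjusted p = 0.0679). The probe of Hibch, the hydrolase just before Hibadh, was dim, at the 13.8th percentile, and gave -0.11. Propionyl-CoA carboxylase joins valine and isoleucine carbon to the citrate cycle. Its beta subunit gene Pccb had a change of -0.30 (SE 0.10, adjusted p = 0.117) and its alpha subunit gene Pcca -0.05 (adjusted p = 0.933).

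On the leucine branch, Ivd, the isovaleryl-CoA dehydrogenase, ran from 8.81 to 9.05 with a median of 8.93 in Tbx3 atria, against 8.96 to 9.47 with a median of 9.30 in Control atria. Control array 2 alone of the Control arrays lay within the Tbx3 range, and the change was -0.34 (SE 0.10, adjusted p = 0.0652). The subunits of methylcrotonyl-CoA carboxylase, Mccc1 and Mccc2, had changes of -0.25 and -0.10, and the hydratase Auh had -0.11, with adjusted p of 0.565 or more. Acadsb, the dehydrogenase of the isoleucine branch, had -0.16 (adjusted p = 0.622), and its second, dim probe gave 0.11.

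Of the 3 ketone genes 1 rose and the others did not pass. Bdh1, which interconverts 3-hydroxybutyrate and acetoacetate, ran from 6.65 to 7.94 with a median of 7.53 in Tbx3 atria, against 5.95 to 7.32 with a median of 6.29 in Control atria. Tbx3 arrays 3 to 6 lay above every Control array, while Tbx3 1 and 2 lay within the Control range, whose top was Control 3. The rise was 1.88-fold (log2 change 0.91, SE 0.20, adjusted p = 0.00455 in limma). The SD was 0.51 in each group, above that of every other gene of the 36. A second probe rose by 0.65 (SE 0.13, adjusted p = 0.00224), the dimmest gave -0.02, and the mean of the 3 probes rose by 0.51 (adjusted p = 0.0466). The call was lost with a robust intensity trend in the variance (adjusted p = 0.163). The promoters of Bdh1, the gene that rose, are shown at the 2 starts that RefSeq gives on the plus strand of GRCm38.p6, chr16:31422047-31422346 and chr16:31428503-31428802, and no motif searched was found in either.

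Bdh1 start 1: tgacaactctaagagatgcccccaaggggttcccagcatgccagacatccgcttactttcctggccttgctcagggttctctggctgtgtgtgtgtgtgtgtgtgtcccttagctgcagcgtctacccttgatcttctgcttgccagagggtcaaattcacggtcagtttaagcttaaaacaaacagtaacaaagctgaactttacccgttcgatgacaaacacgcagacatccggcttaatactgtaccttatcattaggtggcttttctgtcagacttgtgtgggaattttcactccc
Bdh1 start 2: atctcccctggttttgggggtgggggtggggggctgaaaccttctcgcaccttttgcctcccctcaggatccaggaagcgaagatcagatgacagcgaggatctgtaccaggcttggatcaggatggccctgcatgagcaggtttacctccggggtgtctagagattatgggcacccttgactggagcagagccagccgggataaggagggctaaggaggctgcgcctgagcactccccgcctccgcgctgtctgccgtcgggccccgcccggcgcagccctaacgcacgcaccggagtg

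Oxct1, the transferase that commits acetoacetate to use as fuel, ran from 11.08 to 11.61 with a median of 11.48 in Tbx3 atria, against 11.20 to 11.66 with a median of 11.41 in Control atria. The ranges overlapped almost fully, with a change of 0.02 (95% interval -0.20 to 0.24), and a second probe gave -0.18 (adjusted p = 0.492). Its direction turned to -0.05 in the table as deposited and with median centring. Acat1, the thiolase that splits acetoacetyl-CoA and also ends isoleucine breakdown, had a change of -0.30 (SE 0.11, adjusted p = 0.197).

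**Figure D3:**
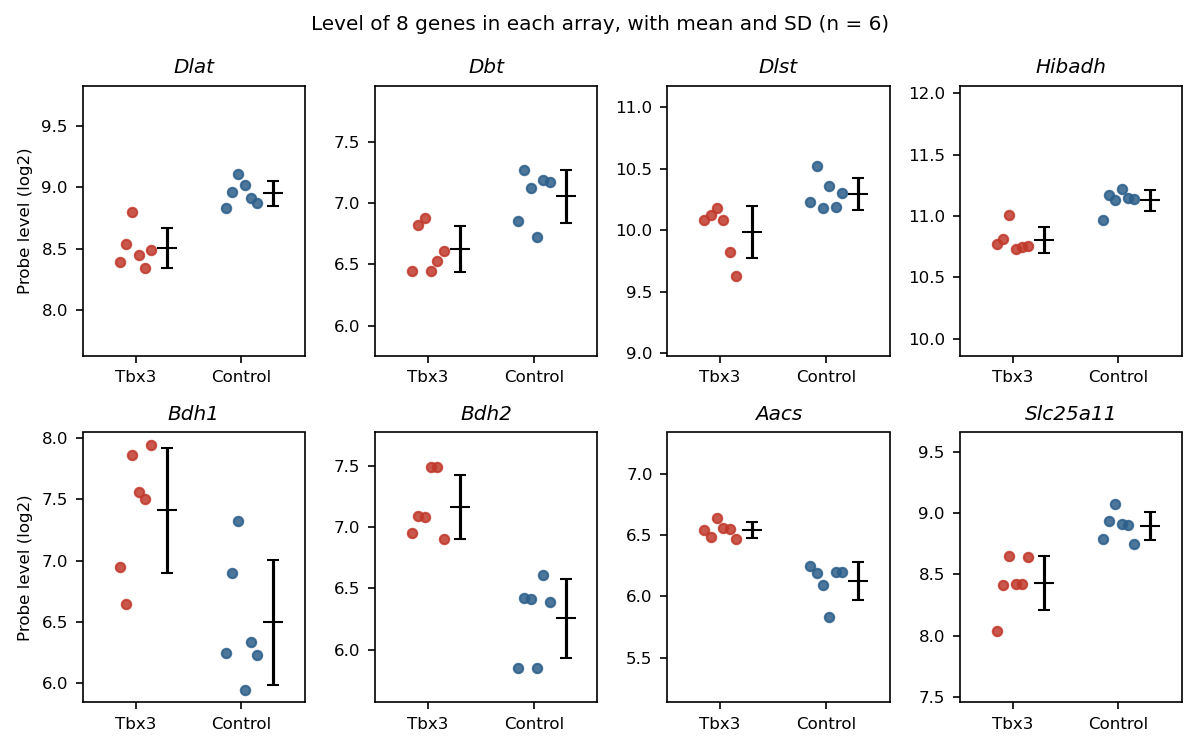
Log2 probe level (y axis, a span of 2.2 log2 in each panel) of 8 genes in each Tbx3 and each Control array, with the mean and SD of each group (n = 6). Dlat, Dlst and Slc25a11 are lower in every Tbx3 array than in any Control array, Bdh2 and Aacs are higher in every Tbx3 array, and Dbt, Hibadh and Bdh1 overlap.

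Of the other pathway genes listed beside these 36, 2 of 45 measured fell and 2 rose, 4.44% each way. The shares of falls and rises were 2.99% and 2.97% over all genes, and 8.2% and 7.73% over the brightest 25%. Slc25a11, the carrier that swaps 2-oxoglutarate for malate across the inner membrane, ran from 8.04 to 8.65 with a median of 8.42 in Tbx3 atria, against 8.75 to 9.07 with a median of 8.90 in Control atria. It fell by 0.46 (SE 0.11, adjusted p = 0.00861 in limma) with no overlap between the groups. Mcee, the epimerase that follows propionyl-CoA carboxylase, ran from 10.05 to 10.62 with a median of 10.19 in Tbx3 atria, against 10.56 to 10.78 with a median of 10.69 in Control atria. In 5 of 6 Tbx3 arrays it lay below every Control array. It fell by 0.43 (SE 0.10, adjusted p = 0.0138), and its call was lost without Tbx3 array 5 (adjusted p = 0.0516). In the ketone list 2 of 3 measured genes rose. Bdh2, a cytosolic dehydrogenase, ran from 6.90 to 7.49 with a median of 7.09 in Tbx3 atria, against 5.85 to 6.61 with a median of 6.40 in Control atria, a rise of 0.91 (SE 0.13, adjusted p = 4.2e-05). Aacs, the cytosolic acetoacetyl-CoA synthetase of lipid synthesis, ran from 6.47 to 6.64 with a median of 6.55 in Tbx3 atria, against 5.83 to 6.25 with a median of 6.19 in Control atria. It rose by 0.41 (SE 0.10, adjusted p = 0.00958).

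Among 10 measured genes of pyruvate entry and its regulators 0 passed in limma, with 1 lower and 0 higher at an unadjusted p under 0.05. Pdk2, a kinase that switches pyruvate dehydrogenase off, had a change of -0.44 (SE 0.13, adjusted p = 0.0506) and Pdk1, another, -0.21 (adjusted p = 0.423). Pdk4, a kinase induced by fasting, ran from 9.25 to 9.82 with a median of 9.37 in Tbx3 atria, against 8.67 to 11.42 with a median of 9.42 in Control atria. Control arrays 2 and 3 were far above the rest, and the change of -0.43 (95% interval -1.04 to 0.19) did not pass (adjusted p = 0.675). Among 4 measured genes of lipoylation and cofactors 0 passed, with 2 lower and 0 higher at an unadjusted p under 0.05. Bola3, which serves iron-sulphur clusters for lipoate synthesis, had a change of -0.30 (adjusted p = 0.0809), with every Tbx3 array below every Control array. Lias, the lipoate synthase, had -0.28 (adjusted p = 0.16). The succinate dehydrogenase genes Sdhb and Sdhc had changes of -0.32 and -0.34 (adjusted p of 0.055 and 0.0652). They come from the list of 16 other measured genes of the citrate cycle and its exchange. In that list 9 changes were below 0 and 7 above, with a median of -0.01, and 5 were lower and 2 higher at an unadjusted p under 0.05. Pdk4, Sdhb and Sdhc were chosen after their values were seen.

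**Figure D4:**
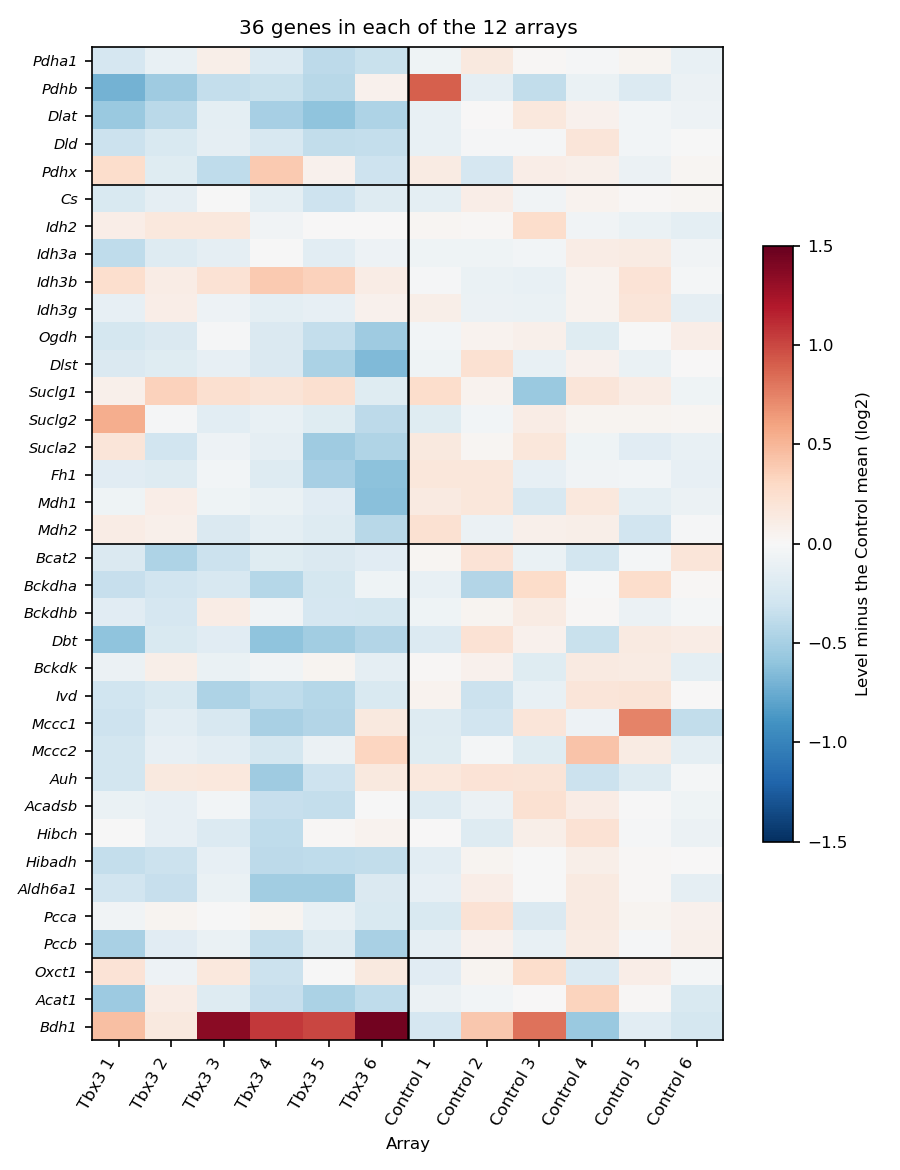
Level of each of the 36 genes (rows, by gene group) in each of the 12 arrays (columns, Tbx3 left of the line) as the log2 difference from the mean of the Control arrays, blue for lower and red for higher. Blue prevails in the Tbx3 columns of the pyruvate dehydrogenase and branched-chain rows, and the Bdh1 row is red in all 6 Tbx3 arrays.

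Across single arrays, between 25 and 31 of the 36 genes lay below their Control mean in each Tbx3 array, against 13 to 24 in each Control array. Every Tbx3 array lay below the lowest Control array for 3 of the 36 genes (Dlat, Dld and Dlst), 8.33% of them, against 2.15% of all genes and 6.41% of the brightest 25%. The mean of the 5 pyruvate dehydrogenase genes, as the difference from its Control mean, ran from -0.35 to -0.18 in Tbx3 arrays, against -0.06 to 0.15 in Control arrays. The mean of the 15 branched-chain genes ran from -0.33 to -0.13 in Tbx3 arrays, against -0.09 to 0.09 in Control arrays. The groups did not overlap for either mean. The same held for lists outside the 36 genes. The mean log2 level of the 17 other mitochondrial genes ran from 9.36 to 9.59 in Tbx3 arrays, against 9.70 to 9.76 in Control arrays, and that of the 9 cardiomyocyte markers from 13.22 to 13.66 in Tbx3 arrays, against 13.73 to 13.96 in Control arrays. The mean of the 13 citrate cycle genes ran from -0.31 to -0.01 in Tbx3 arrays, against -0.05 to 0.04 in Control arrays. There the groups overlapped, and Tbx3 arrays 5 and 6 were the low ones, at -0.19 and -0.31. The median change of the citrate cycle genes was -0.06 without Tbx3 array 6 and Control array 4 together, against -0.16 with all arrays.

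**Figure D5:**
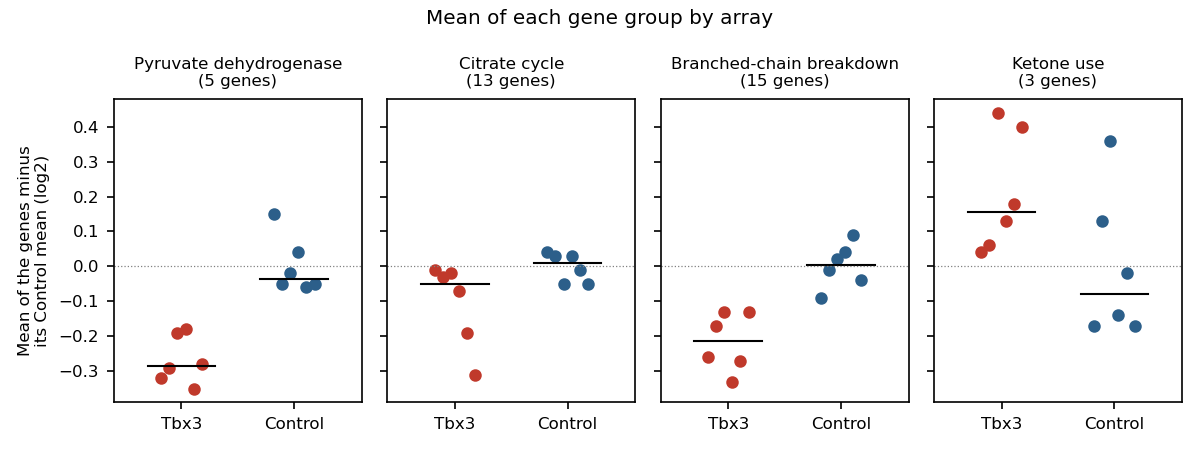
Mean of the genes of each group as the log2 difference from its Control mean (y axis), 1 point for each array and a line at the median, Tbx3 left of Control. The Tbx3 and Control points are apart for pyruvate dehydrogenase and for branched-chain breakdown, and they overlap for the citrate cycle and the ketone genes.

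Markers of several cell types moved in the same arrays. Of 9 measured cardiomyocyte markers 4 fell (Myh6, Ttn, Nppa and Ryr2), and their summed linear level ran from 124265 to 168184 in Tbx3 arrays, against 165620 to 187461 in Control arrays. These sums, of all 9 markers, overlapped, while the mean log2 levels of the same markers did not. The other cardiomyocyte markers did not pass. Tnnt2 and Actc1, among the brightest probes, had changes of 0.08 and -0.03. Myl4, Myl7 and Actn2 had changes of -0.24, -0.26 and -0.19, and Myl4 stood at 15.40 in every Control array. The Myh6 call was lost without any of Tbx3 1, 3, 4, 5 and 6 and Control 4 and 5 (adjusted p up to 0.0862). Of 8 skeletal muscle markers 3 fell, with changes of -3.28 for Tnni2, -1.72 for Atp2a1 and -0.95 for Acta1. Tnnt3 and Mylpf, a little brighter than the median probe, did not fall, with changes of 0.14 and 0.03. Myh4, Myh1 and Pvalb were dimmer than the median probe. Over the list 4 changes were below 0 and 4 above, with a median of -0.04. The sums of the 8 markers ran from 365 to 486 in Tbx3 arrays, against 818 to 1789 in Control arrays, with no overlap. Of 10 fibroblast markers 4 rose, with sums of 23762 to 33570 in Tbx3 arrays, against 20041 to 24860 in Control arrays. Col1a2, at the 96.4th percentile, was the only 1 of them below 0, with a change of -0.34 (adjusted p = 0.777 in limma). Of 6 smooth muscle markers 3 rose and 1 fell, with sums of 7345 to 11209 in Tbx3 arrays, against 4605 to 7587 in Control arrays. The fall, in Smtn, was lost without any of Tbx3 5 and 6 and Control 2, 5 and 6 (adjusted p up to 0.0844). Of 5 measured erythroid markers 1 rose (Slc4a1), with sums of 26873 to 45779 in Tbx3 arrays, against 6593 to 35400 in Control arrays. That rise was lost without any of Tbx3 1, 3, 4 and 5 and Control 2, 3, 4 and 5 (adjusted p up to 0.175). The fibroblast marker Tcf21, the smooth muscle markers Cnn1 and Lmod1 and the erythroid marker Epb42 were dimmer than the median probe. The part of these cell types in the changes of the 36 genes was not tested. In whole atria, fewer muscle cells and less of an mRNA in each muscle cell cannot be told apart. Of 8 adipocyte markers 1 rose (Cidea, by 1.86), while Plin1, Cidec, Ucp1 and Lep were dimmer than the median probe. The brighter Fabp4, Retn and Adipoq did not pass, with changes of -0.35, -0.16 and 0.07. Fabp4 was lower in every Tbx3 array than in any Control array (adjusted p = 0.0714 in limma).

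The promoter windows, 250 bases before to 50 after a start, covered 33 of the 36 genes with 43 windows, some of them overlapping alternative starts. No window was given for Idh3a, Acat1 and Dbt, so the promoter of Dbt, which fell, was not searched. Motifs were searched on both strands and compared with all 32851 windows. The T-box core AGGTGT was found in 7 of the 43 windows (16.3%), those of Cs, Dlat, Mccc2, Ogdh, Pcca and Pdhb, against 13.7% of all windows, and the longer AGGTGTGA, which contains it, in 0, against 1.28%. AAGGTCA, the core of the oestrogen-related receptor site, was found in 1 (2.33%), an Ogdh window, against 4.72%. The NRF1 core CGCATGCG was found in 3 (6.98%), overlapping windows of Ogdh and the window of Pccb, against 1.87%, and the ETS motif CCGGAAG in 4 (9.3%), against 8.86%. Of Dlat, Hibadh and Bdh1, only Dlat held a motif searched, on the opposite strand from base 20 after its start. A match is only a run of letters, and no match says nothing of a factor.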

How the data were processed

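Total RNA of each atrial sample, 250 ng of it, was amplified, labelled with biotin and hybridised to a beadchip, per the labels' protocols. The authors deposited 1 table of all arrays. How they corrected background and normalized, with which software and in which log base, is not given in the sources used here. What the authors deposited was read as natural log, since values reached 10.81, which on base e is 49513.5, near the 16-bit scanner ceiling, and on base 2 only 1795.3. No detection p-values were used, so the percentile of brightness stands in for detection. Precision is limited by 6 arrays a group.

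Of 46133 rows, 10 were empty and 9 repeated another row and were left out. Values were turned into log2 and quantile-normalized, since interquartile ranges ran from 0.54 to 0.65. Of 46114 probes, 29533 had 1 gene symbol, 11 several and 16570 none, after symbols were updated through RefSeq gene identifiers (GRCm38.p6). Tbx3 was compared with Control in limma 3.58.1 under R 4.3.3 (lmFit, eBayes, 2-sided, Benjamini-Hochberg over all probes, threshold 0.05), after a test on simulated data. A level carries the SD between arrays, a change the SE of limma's fit. The labels call the arrays biological replicates.

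Groups and replicate numbers came from the titles. Arrays of the 2 groups with the same number correlated from -0.176 to 0.211 in their deviations from the group means, so the numbers do not pair them. The labels name no batch. Odd-numbered and even-numbered samples form separate runs in the order of deposit, 6 arrays each with 3 of each group, and whether these were separate beadchips is not known, so the number's parity was tried as a block. The 24 alternatives left out each array in turn or changed the scaling, the dim-probe filter, the variance model, a block, the choice of probe, the threshold or the log base. The 36 genes, the gene lists and the alternatives were chosen with earlier results of these data known. The genes described with ranges over arrays are those past the threshold and 10 that carry a complex or a central step (Pdha1, Dlat, Cs, Ogdh, Idh3a, Bcat2, Bckdha, Bckdk, Oxct1 and Bdh1). Dld, Dlst, Ivd, Aldh6a1 and Pdk4 were added after their values were seen. From each list of other pathway genes those past the threshold are named, or the 2 with the smallest p. Endothelial, macrophage and neuronal markers were also listed. Of these, 0 of 8 endothelial and 0 of 5 macrophage markers passed in limma (2 lower and 2 higher, and 0 lower and 2 higher, at an unadjusted p under 0.05), and 1 of 6 neuronal and Schwann markers rose.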

Additional observations from a re-analysis of the deposited data

Results flagged for a closer look

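Among 94 groups of 6 arrays checked (the 36 genes, 8 other pathway genes, Pdk4, Sdhb and Sdhc, in each group), 9 held an array whose gap to the nearest other was over 0.625 of the group's range, where chance gives about 1 in 20 groups. Tbx3 array 6 had Mdh1 at 10.12, against 10.58 for the nearest other Tbx3 array, and Mccc2 at 7.24, against 6.83. Tbx3 array 3 had Hibadh at 11.01, against 10.81. Tbx3 array 2 had Pdk4 at 9.82, against 9.45. Control array 1 had Pdhb at 8.35, against 7.37 for the nearest other Control array, and Hibadh at 10.97, against 11.13. Control array 1 also had Sdhc at 11.61, against 11.83. Control array 3 had Sdhb at 11.39, against 11.60. Control array 4 had Dld at 10.34, against 10.16. Without a single array the change of Pdhb ranged from -0.47 to -0.20, that of Dld from -0.30 to -0.24, that of Hibadh from -0.37 to -0.31, that of Mdh1 from -0.21 to -0.06 and that of Mccc2 from -0.18 to -0.01. In these ranges Hibadh alone was called in some fits.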

How the results depend on the processing

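Over 24 alternatives, Dlat fell in all, Dbt in 15 and Hibadh in 9, and Bdh1 rose in 23. These counts include base 2, which moves no p and so could not change a call. Against 3 falls, there were 5 in the table as deposited, among probes above the median level and with a robust intensity trend (where 0 rose), 9 among the brightest 25% of probes, 1 at a threshold of 0.01 (with 896 probes called in all, against 1592) and 1 to 4 without single arrays. It was 1 without any of Tbx3 1, 4 and 5 and Control 3, 5 and 6. With a replicate block, as with odd or even numbers as a block and without Tbx3 6 and Control 4 together, there were 2 falls, Dlat and Dbt, and 1 rise, and the adjusted p of Hibadh was 0.0774 in the first. Among the brightest 25% of probes the median change was -0.21, but over the 32 genes still tested. The change of each of these was as in the main fit, so the median moved only because dim genes were left out. The median change of the 36 genes was -0.11 in base 2, where those of pyruvate dehydrogenase and branched-chain genes were -0.19 and -0.17. The branched-chain median was -0.15 when the probes of a gene were averaged and -0.26 to -0.17 without single arrays. The citrate cycle median was -0.06 without Tbx3 6 and Control 4 together. The sign turned for genes that were never called. Oxct1 was at -0.05 as deposited and with median centring, -0.08 with the mean of all probes, -0.05 without the 2 arrays and -0.02 to 0.09 without single arrays. With the mean of all probes Suclg1 was at -0.01 and Suclg2 at 0.07. Without the 2 arrays Pdhx, Suclg2, Bckdk and Pcca were at 0.05, 0.02, 0.0040 and 0.01, and without single arrays Pdhx ran from -0.11 to 0.04 and Suclg2 from -0.17 to 0.01. For dim probes such as Pdhx and Hibch a missed threshold says little.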
